A study of Mus musculus with 6 samples.

Results

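Potassium channel genes were taken as all rows typed protein_coding in the deposited count table whose symbol begins with Kcn, followed by letters and a digit, apart from 1 inward rectifier gene that the selection excludes by name. This gave 92 of the 35275 genes in the table. They were measured by poly-A RNA sequencing of whole kidneys from wild-type (WT) C57Bl/6 mice. Ischaemia-reperfusion injury, a stop of the kidney's blood flow followed by its return, preceded sampling by 28 days. In the mild group (n = 3) ischaemia had lasted 20 min, and in the severe group (n = 3) 35 min. All 6 libraries therefore came from injured kidneys, and uninjured kidneys were not analysed here. The labels give neither the age of the mice nor whether each library came from a separate mouse, so a p-value reflects the spread among these libraries alone, which may be technical. The libraries are called by the numbers in the column names, 7, 8 and 9 (mild) and 13, 14 and 15 (severe). The series asks how kidney injury of different severity passes into chronic disease, and the comparison here asks how far channel genes differ between the longer and the shorter ischaemia.

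Potassium channels let potassium ions pass down their gradient and so set the membrane potential of a cell. In tubule epithelium they return potassium that the sodium pump brings in and keep the voltage that drives the transport of sodium, chloride and bicarbonate. In immune cells, fibroblasts and smooth muscle they hold the membrane negative, which favours calcium entry or keeps muscle relaxed. The pore-forming families are the inward rectifiers (Kcnj), the two-pore channels (Kcnk), the voltage-gated subunits (Kcna to Kcnd, Kcnf to Kcnh, Kcnq, Kcns, Kcnv) and the calcium- or sodium-activated channels (Kcnma, Kcnn, Kcnt). Their relative Kcnu1 was grouped with the last of these and had too few counts to test. The Kcnab, Kcne, Kcnip and Kcnmb genes encode auxiliary subunits or binding proteins.

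The libraries held between 15240491 and 17730967 gene counts. Levels are given as CPM, the usual read counts scaled to a common library size, here after adjustment by TMM factors, which set the bulk of genes equal between libraries. These factors spanned 0.943 to 0.945 for the mild group, against 0.974 (library 13), 1.17 (14) and 1.04 (15) for the severe group, so library 14 stood apart, also in its share of mitochondrial reads (7.48%, against 8.47% to 10.7% in the other 5). Markers of proximal tubule, thick ascending limb, distal convoluted tubule and collecting duct were all detected, in keeping with the label kidney. Summed proximal tubule markers (12 genes) lay between 22550 and 23957 CPM in mild and between 10676 and 19970 CPM in severe libraries, and summed injured-tubule markers (10 genes) between 2285 and 3013 CPM in mild and between 3093 and 10585 CPM in severe libraries.

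No potassium channel gene passed the test between severe and mild kidneys, and the members with the smallest p-values were low-abundance channels that stood higher in severe kidneys, led by Kcnn4. Of the 92 genes, 45 had enough counts to be tested, and 0 of these had an adjusted p under 0.05 (edgeR quasi-likelihood test, Benjamini-Hochberg over all 14883 tested genes; lowest adjusted p = 0.0867), where 0.0134% of all tested genes did. At an unadjusted p under 0.05, 9 of the 45 stood higher in severe kidneys (20.0%, against 15.8% of all tested genes) and 4 lower (8.89%, against 7.89%). Every severe library lay above every mild library for 9 members (20.0%, against 17.9% of all tested genes) and below for 4 (8.89%, against 16.1%). The first 3 of these shares are near those of all genes, and the last is lower; a difference from other genes was not tested. The median log2 fold change (severe minus mild) over the 45 was -0.027, and over all tested genes it was 0.00019. The members' median was above 0, between 0.011 and 0.082, when any 1 library was left out. In those settings 47 to 50 members passed the filter, so these medians are not over the same genes. With library totals in place of TMM the median over all tested genes moved to 0.17, so small differences below depend on the scaling.

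The count of members past the threshold depended on the libraries and the tool. Without severe library 13, 11 of 47 tested members were called higher (against 13.8% of all tested genes) and 5 lower (against 7.74%). Without severe library 14, 4 of 47 were called higher (against 2.40%) and 0 lower (against 0.931%). DESeq2 on all 6 libraries called 6 of 43 higher (against 7.19%) and 2 lower (against 0.993%), and limma-voom called 0. The members called by DESeq2 were Kcnn4, Kcnip3, Kcnk6, Kcnd3, Kcnt2 and Kcnh2 on the higher side and Kcnh4 and Kcnj12 on the lower side. Kcnn4, Kcnip3, Kcnk6 and Kcnt2 were the 4 called without library 14. The calls without library 13 included Kcna6, Kcnd3, Kcnh2, Kcnip3, Kcnk13, Kcnk2, Kcnk6, Kcnn4, Kcns3 and Kcnt2 on the higher side, and Kcnh4, Kcnj10, Kcnj12, Kcnk5 and Kcnt1 on the lower side.

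**Figure D1:**
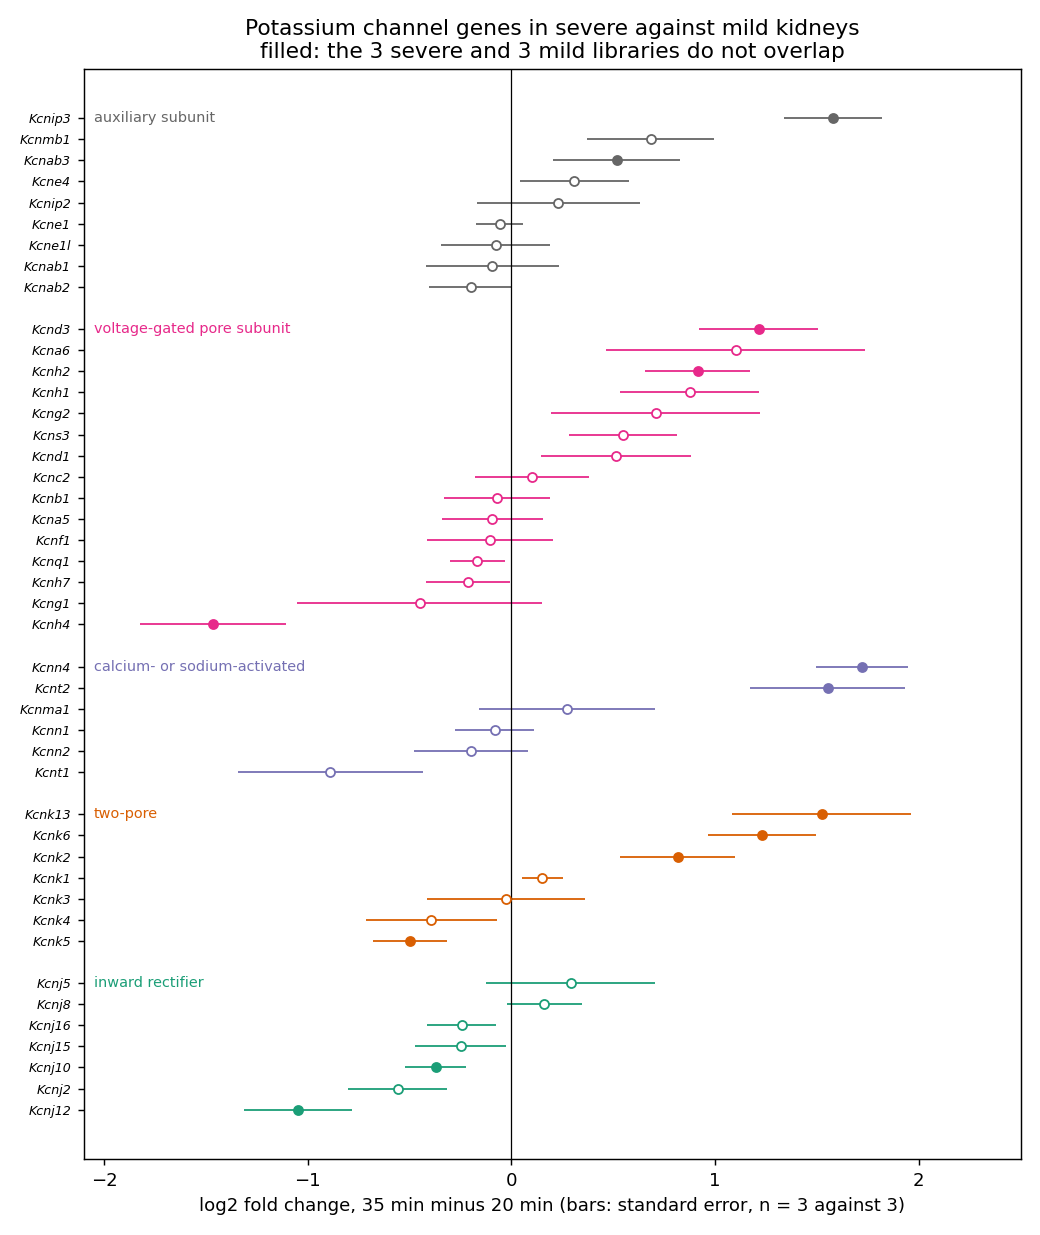
Log2 fold change (35 min minus 20 min ischaemia) on the horizontal axis for the tested potassium channel genes apart from 1, grouped by class, with bars for the standard error (3 against 3 libraries). Filled points are genes whose severe and mild libraries do not overlap: 9 lie to the right of 0, with Kcnn4 at 1.72 farthest, and 4 to the left, with Kcnh4 at -1.46 farthest.

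Levels differed far more between channels than between groups. Per kilobase of gene length, averaged over all 6 libraries, Kcnj15 stood at 164 and Kcnj16 at 159 CPM per kilobase, followed by Kcnk5 at 43.3, Kcnk1 at 23.1 and Kcnj10 at 12.5. The inward rectifiers Kcnj15 and Kcnj16 together held between 72.8% and 78.1% of all reads on the 92 genes in each library. The tested member with the lowest level per kilobase was Kcna6 at 0.149 CPM per kilobase. Kcnn4 stood at 0.464 CPM per kilobase in mild and 1.54 in severe kidneys, below each of the 7 tested tubule channels in both groups. Summed over the 92 genes, members made up 2001 to 2291 CPM in mild libraries and 2255, 1454 and 1819 CPM in severe libraries 13, 14 and 15, so the groups overlapped and only libraries 14 and 15 were below the mild range.

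**Figure D2:**
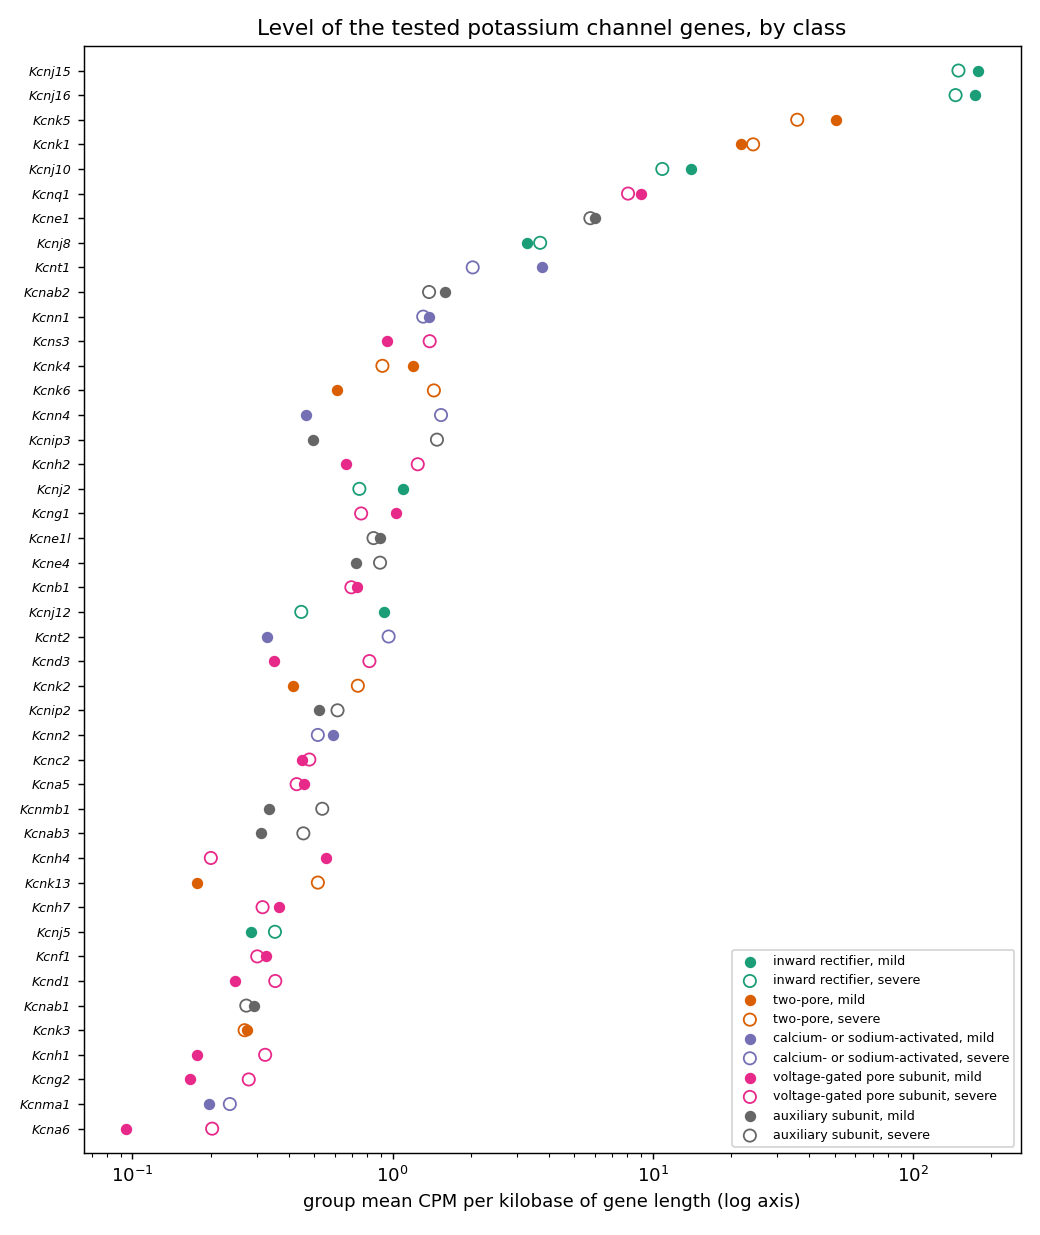
Mean level of the tested potassium channel genes apart from 1, in CPM per kilobase of gene length (horizontal log axis), filled points for mild and open points for severe kidneys, coloured by class. Kcnj15 (178 in mild, 149.7 in severe) and Kcnj16 (173 and 146) lie highest, and most voltage-gated and auxiliary subunit genes lie under 1.

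Among 9 channels known from tubule epithelium, 7 were tested and the differences were small. At an unadjusted p under 0.05, 2 of the 7 were lower in severe kidneys (all tested genes: 7.89%) and 0 higher (all tested genes: 15.8%), with 0 past an adjusted p of 0.05, and log2 fold changes ran from -0.50 to 0.15 with a median of -0.24. Kcnk5, a two-pore channel of the basolateral membrane of the proximal tubule, stood at 161, 196 and 154 CPM in mild and 148, 90.1 and 125 CPM in severe libraries. Every severe library was below every mild one, and library 14 was lowest. The log2 fold change was -0.50 ± 0.18 (SE; edgeR adjusted p = 0.170). It was -0.32 without severe library 14 (adjusted p = 0.155) and -0.66 without severe library 13 (adjusted p = 0.0258), where it passed the threshold. In the setting without library 13, 7.74% of all tested genes passed on the lower side. Kcnj10, which pairs with Kcnj16 in the basolateral membrane of the distal convoluted tubule and thick limb, stood at 69.9, 79.5 and 78.9 CPM in mild and 69.3, 45.2 and 62.1 CPM in severe libraries. The groups just failed to overlap, with severe library 13 close to mild library 7, and the log2 fold change of -0.37 ± 0.15 (adjusted p = 0.195) was -0.21 without library 14 (adjusted p = 0.157) and -0.498 without library 13 (adjusted p = 0.0355).

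The most abundant channels overlapped between the groups. Kcnj16, a subunit that forms channels with Kcnj10 or Kcnj15, stood at 585, 685 and 650 CPM in mild and 644, 443 and 534 CPM in severe libraries (log2 fold change -0.24 ± 0.17, adjusted p = 0.375). Kcnj15, its partner in the proximal tubule, stood at 926, 1069 and 1049 CPM in mild libraries and at 1117, 616 and 830 CPM in severe libraries (log2 fold change -0.25 ± 0.22, adjusted p = 0.497). Severe library 13 had the highest Kcnj15 level of all 6 libraries and library 14 the lowest, and without library 14 the log2 fold change was -0.06 for Kcnj15 and -0.12 for Kcnj16. Without library 13 it was -0.48 for Kcnj15 (adjusted p = 0.0800) and -0.38 for Kcnj16 (adjusted p = 0.0959). Kcnk1, a weak inward-rectifying two-pore channel of several nephron segments, did not share that pattern: it stood at 48.8, 51.6 and 50.7 CPM in mild and 51.2, 64.2 and 52.5 CPM in severe libraries, with library 14 highest (log2 fold change 0.15 ± 0.10, adjusted p = 0.357; 0.041 without library 14). Kcnq1, a voltage-gated pore of the proximal tubule brush border, stood at -0.17 ± 0.13 on the log2 scale (adjusted p = 0.444; -0.045 without library 14). Its auxiliary subunit Kcne1 stood at -0.06 ± 0.12 (adjusted p = 0.771), and at 0.10 with library totals. With library totals the values of the other tubule channels also lay higher, such as -0.22 for Kcnj10, -0.10 for Kcnj15, -0.091 for Kcnj16, -0.0091 for Kcnq1 and 0.33 for Kcnk1. The span of Kcnq1 overlaps that of the antisense transcript Kcnq1ot1. Exons were not compared and the strand setting was not given, so whether any of their reads were shared was not tested. The other 2 tubule channels were too low to test: Kcna1, of the distal convoluted tubule, had 23 counts over the mild and 32 over the severe libraries, and the large-conductance channel subunit Kcnmb4 had 1 count in all.

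Several markers of the tubule segments stood lower in severe libraries. Of 12 proximal tubule markers 0 passed an adjusted p of 0.05, and their median log2 fold change was -0.51. At an unadjusted p under 0.05, 5 were lower (all tested genes: 7.89%). Summed thick ascending limb markers (8 genes) lay between 8571 and 8723 CPM in mild and between 4291 and 7644 CPM in severe libraries. Summed distal convoluted tubule markers (8 genes) lay between 1942 and 2141 CPM in mild and between 1181 and 1823 CPM in severe libraries. In each of these 2 lists 2 of 8 markers were lower at an unadjusted p under 0.05 (all tested genes: 7.89%), and 0 passed an adjusted p of 0.05. Principal cell markers overlapped, at 553 to 654 CPM summed in mild and 466 to 630 CPM in severe libraries, with 0 of 7 tested at an unadjusted p under 0.05. Library 14 was lowest in each of these sums. In whole-kidney RNA, fewer cells of a type and less RNA per cell cannot be told apart, and the part of these markers in the channel values was not tested.

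Kcnn4, which encodes the intermediate-conductance calcium-activated channel of T cells, macrophages and fibroblasts, had the smallest p of all members. It had 13, 14 and 16 counts in mild and 51, 57 and 52 in severe libraries, or 0.896, 0.838 and 1.10 against 2.97, 3.21 and 3.20 CPM. The SD in CPM was alike in the 2 groups though the means differed, with 0.944 ± 0.136 against 3.12 ± 0.136 CPM (mean ± SD, n = 3 each). On 13 to 57 counts per library, so small a spread is no measure of how well the value would repeat. The fold was 3.30, a log2 fold change of 1.72 ± 0.23 (edgeR unadjusted p = 7.38e-05, adjusted p = 0.0867), and it missed the threshold over all genes. The adjusted p was 0.00645 without severe library 13 and 0.0162 without severe library 14, and it was at most 0.319 when any 1 library was left out, with log2 fold changes between 1.65 and 1.85. Kcnn4 (ENSMUSG00000054342) spans positions 24370263 to 24385209 of chromosome 7 (mm10, plus strand).

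Start-site sequences are shown for Kcnn4 and Kcnip3, the leading members on the higher side, and for Kcnk5 and Kcnj16, tubule channels of high level. Each is the 250 bases before the gene start of the deposited table, read 5′ to 3′ on the gene's strand from RefSeq on GRCm38.p6, the build also called mm10. They lie at chr7:24370013-24370262 (plus strand), chr2:127522095-127522344 (minus), chr14:20181783-20182032 (minus) and chr11:110967783-110968032 (plus). Capitals mark matches, on either strand, to 5 motifs: AP-1 (TGANTCA), the E-box (CACGTG), the HNF1 half-site (GTTAAT), HNF4 (by the letters CAAAGTCCA) and PU.1 (GAGGAAGT). Each window held at most 1 match, so none overlap.
Kcnn4: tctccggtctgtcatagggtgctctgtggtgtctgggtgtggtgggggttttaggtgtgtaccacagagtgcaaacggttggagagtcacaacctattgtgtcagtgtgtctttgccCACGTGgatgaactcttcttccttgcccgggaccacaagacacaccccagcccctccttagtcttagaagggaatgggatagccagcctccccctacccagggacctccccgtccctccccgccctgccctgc
Kcnip3: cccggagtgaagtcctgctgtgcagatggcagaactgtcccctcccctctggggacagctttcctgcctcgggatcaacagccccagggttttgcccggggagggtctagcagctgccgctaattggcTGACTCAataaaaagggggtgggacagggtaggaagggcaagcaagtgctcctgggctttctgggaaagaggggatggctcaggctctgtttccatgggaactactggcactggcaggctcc
Kcnk5: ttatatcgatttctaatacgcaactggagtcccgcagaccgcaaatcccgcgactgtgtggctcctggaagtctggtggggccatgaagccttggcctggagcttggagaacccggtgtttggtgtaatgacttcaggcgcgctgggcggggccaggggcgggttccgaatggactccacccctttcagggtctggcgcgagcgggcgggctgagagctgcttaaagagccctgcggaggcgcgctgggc
Kcnj16: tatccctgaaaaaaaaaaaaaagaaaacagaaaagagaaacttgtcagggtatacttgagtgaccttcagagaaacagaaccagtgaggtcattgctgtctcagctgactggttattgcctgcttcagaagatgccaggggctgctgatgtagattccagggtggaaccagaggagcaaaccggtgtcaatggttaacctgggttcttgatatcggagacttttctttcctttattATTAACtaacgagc
The Kcnn4 window held 1 E-box, the Kcnip3 window 1 AP-1 match, the Kcnj16 window 1 HNF1 half-site on the reverse strand and the Kcnk5 window none of the 5. Of 32851 windows of the same length, 6.02% held an E-box, 6.75% an AP-1 match, 6.43% an HNF1 half-site, 0.384% an HNF4 match and 2.44% a PU.1 match. Windows were found for 67 of the 92 members, and of the 33 tested members among these, 5 held an E-box, 2 an AP-1 match, 3 an HNF1 half-site, 0 HNF4 and 0 PU.1. Members were counted as genes with a match in any of their windows (3 windows for Kcnip3, 4 for Kcnj16). The percentages are of single windows, so the member counts cannot be compared with them directly. These are matches of letters and say nothing of binding.

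Set against the tubule channels, Kcnn4 stood nearer to them in every severe library. Its log2 CPM minus the mean log2 CPM of the 7 tested tubule channels was -6.69, -6.93 and -6.54 in mild libraries 7, 8 and 9 and -5.17, -4.61 and -4.89 in severe libraries 13, 14 and 15. The groups did not overlap, and the difference of the group means was 1.83 on the log2 scale, given as a description with no test. Kcnn4 alone had a log2 fold change of 1.72 with no overlap, so most of this difference restates the Kcnn4 values. In library 13 Kcnn4 lay 1.54 above its mild mean while the tubule channels lay between -0.20 and 0.14 of theirs. In library 14 Kcnn4 lay 1.65 above, and Kcnk5, Kcnj10 and Kcnj15 lay at -0.91, -0.75 and -0.72.

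**Figure D3:**
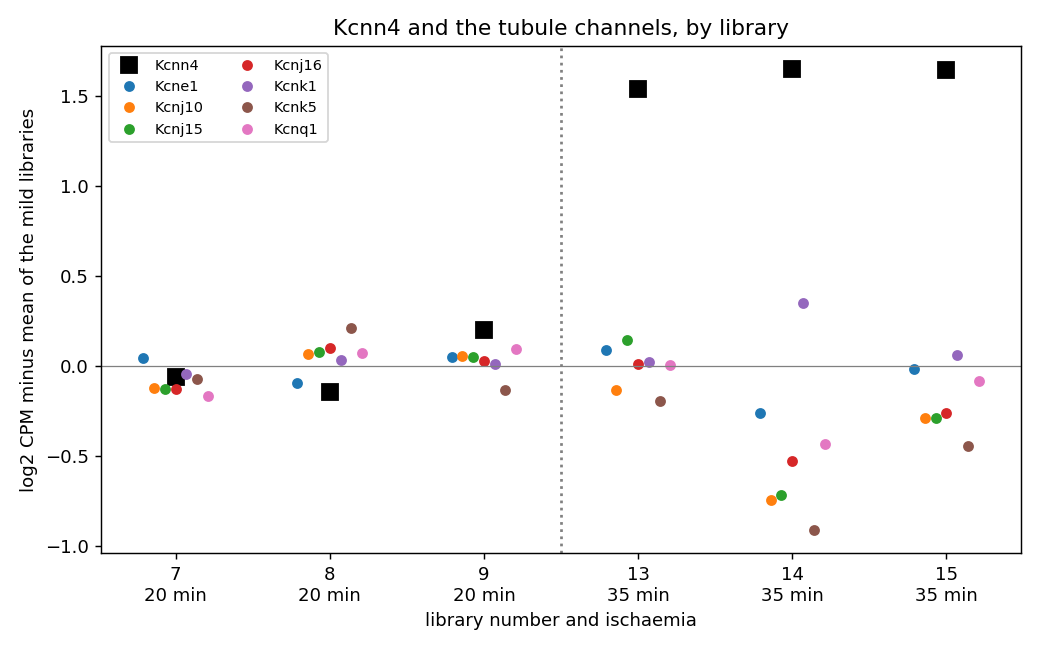
Log2 CPM of Kcnn4 (black squares) and the 7 tested tubule channels (coloured points) in each library, set against the mean of the mild libraries. Kcnn4 lies at 1.54, 1.65 and 1.64 in the severe libraries, while the tubule channels lie near 0 in library 13 and, apart from Kcnk1, below 0 in libraries 14 and 15.

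Markers of macrophages and fibroblasts, which can carry Kcnn4, were higher in the same libraries, though not these markers alone. All 12 macrophage markers stood higher at an unadjusted p under 0.05 (all tested genes: 15.8%), and 0 passed an adjusted p of 0.05. Their summed level was 327 to 395 CPM in mild and 610, 1201 and 755 CPM in severe libraries 13, 14 and 15. Of the 12, 0 were at 0 counts. All 10 fibroblast markers stood higher by the same measure and 0 passed the adjusted threshold, at 579 to 731 CPM summed in mild and 1215, 4000 and 2067 CPM in the same severe libraries, with 0 at 0 counts. T and NK cell markers (10 genes, 7 tested) overlapped, with 8.41 to 14.7 CPM summed in mild and 11.5 to 18.1 CPM in severe libraries. At an unadjusted p under 0.05, 9 of 10 injured-tubule markers and 6 of 10 smooth muscle and pericyte markers were also higher. In both lists 0 were lower at that level and 0 passed an adjusted p of 0.05. The macrophage and fibroblast sums differed between severe libraries 13 and 14 by more than Kcnn4 did. With 51 and 57 counts for Kcnn4 there, these libraries cannot show whether it follows the sums. The part of any of these cells in the Kcnn4 value was not tested.

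The channels known from immune cells, Kcnn4 among them, did not share 1 direction. Of 6, 5 were tested, 3 stood higher at an unadjusted p under 0.05 (Kcnn4, Kcnk6 and Kcnk13; all tested genes: 15.8%), 0 lower (7.89%) and 0 past an adjusted p of 0.05. Kcnk6, a two-pore channel that carries potassium out of macrophages, stood at 1.65, 2.64 and 3.23 CPM in mild and 5.12, 7.03 and 5.53 CPM in severe libraries. The groups were well apart, with a log2 fold change of 1.23 ± 0.26 (adjusted p = 0.0867; 0.0470 without severe library 14). Kcnk13, the two-pore channel of microglia and some macrophages, stood at 0.689, 0.539 and 0.412 CPM in mild and 0.814, 1.80 and 2.15 CPM in severe libraries, or 6 to 10 counts against 14 to 35 (log2 fold change 1.52 ± 0.44, adjusted p = 0.117). It passed the filter on low counts through the severe libraries, since only 1 mild library reached 0.645 CPM.

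Kcnj2, a strong inward rectifier of macrophages, endothelium and muscle, stood at 7.58, 5.99 and 4.39 CPM in mild and 3.90, 4.90 and 3.38 CPM in severe libraries, which overlapped (log2 fold change -0.56 ± 0.24, adjusted p = 0.214; -0.35 without mild library 7). Kcnab2, the cytoplasmic partner of voltage-gated channels in lymphocytes and neurons, stood at -0.20 ± 0.20 on the log2 scale (adjusted p = 0.551), and 0.02 without mild library 9. The lymphocyte channel Kcna3 was too low to test, with 1 count over the mild and 8 over the severe libraries, 7 of them in library 14.

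**Figure D4:**
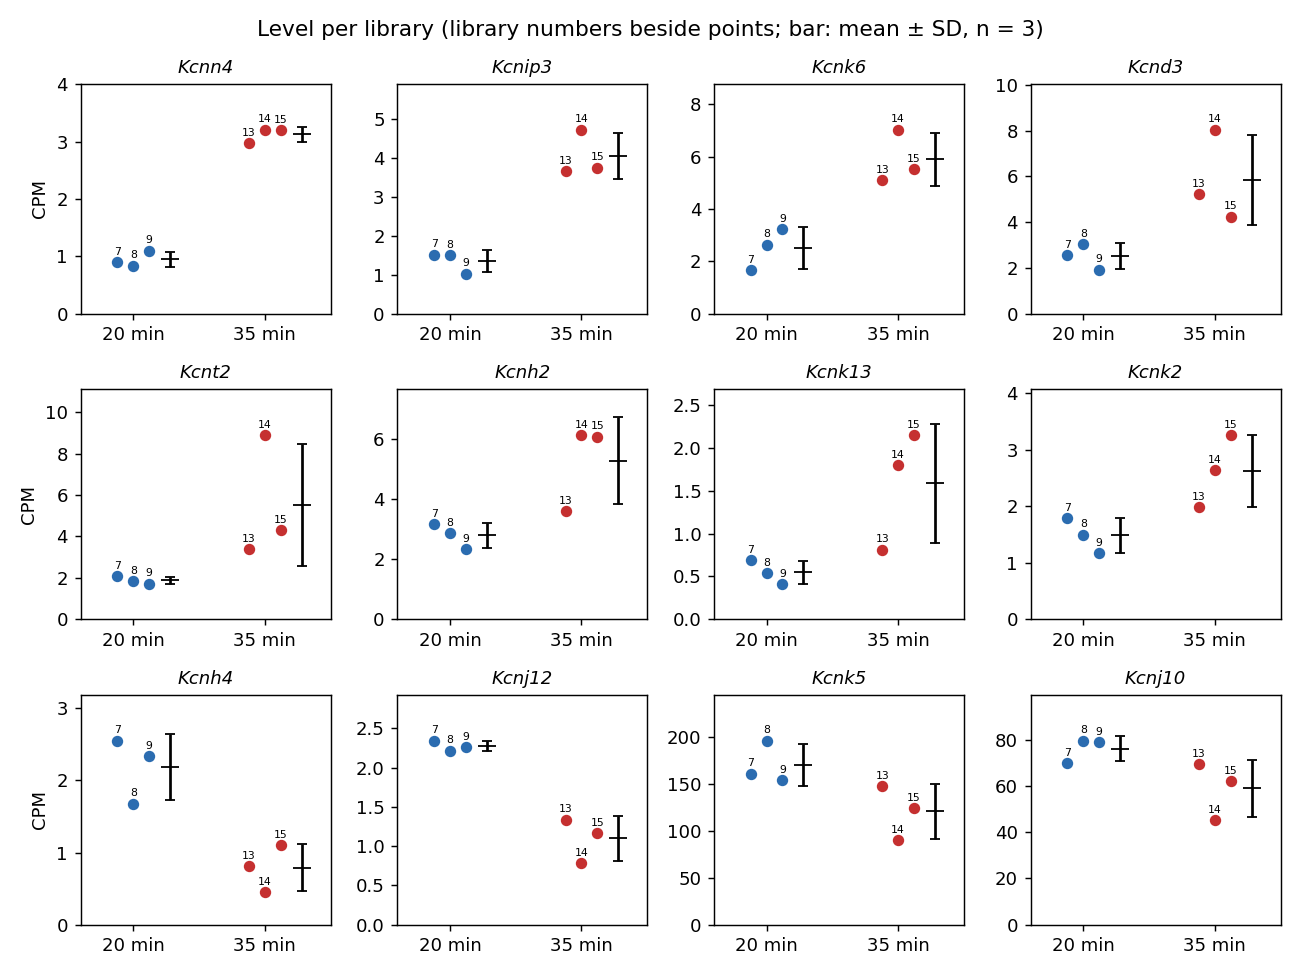
CPM in each library (numbered points) for 12 potassium channel genes at an unadjusted p under 0.05 whose groups do not overlap, with the mean ± SD of the 3 libraries per group beside them; each panel has its own axis from 0. The first 8 panels are higher at 35 min, with Kcnn4 and Kcnip3 farthest apart for their spread, and the last 4 (Kcnh4, Kcnj12, Kcnk5, Kcnj10) are lower.

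Kcnip3 followed Kcnn4 by p-value. It encodes a calcium-binding protein of the KChIP family that binds voltage-gated Kcnd channels and also DNA. It stood at 1.52, 1.497 and 1.03 CPM in mild and 3.66, 4.73 and 3.75 CPM in severe libraries. The groups did not overlap, with library 14 highest, and the log2 fold change was 1.58 ± 0.24 (adjusted p = 0.0867; 0.0194 without severe library 14). Kcnd3, the A-type voltage-gated pore that Kcnip proteins bind, stood at 2.55, 3.05 and 1.92 CPM in mild and 5.23, 8.05 and 4.24 CPM in severe libraries (log2 fold change 1.21 ± 0.29, adjusted p = 0.0950). Of the other Kcnd and Kcnip genes, Kcnd1 stood at 0.51 ± 0.37 and Kcnip2 at 0.23 ± 0.40, both overlapping, and Kcnd2, Kcnip1 and Kcnip4 were not tested.

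The sodium-activated channels had differences of opposite sign. Kcnt2 stood at 2.07, 1.86 and 1.72 CPM in mild and 3.37, 8.89 and 4.30 CPM in severe libraries, with library 14 highest by far (log2 fold change 1.55 ± 0.38, adjusted p = 0.0972; 1.03 without library 14). Kcnt1, of the same family, stood at 26.5, 23.2 and 16.5 CPM in mild and 20.5, 4.44 and 10.9 CPM in severe libraries. Its groups overlapped through library 13 and mild library 9, and the log2 fold change of -0.89 ± 0.46 (adjusted p = 0.261) was -0.49 without library 14 and -1.52 without library 13 (adjusted p = 0.0239). Kcnn1 and Kcnn2, the small-conductance relatives of Kcnn4, stood at -0.08 ± 0.19 and -0.20 ± 0.28 with overlapping groups (adjusted p = 0.806 and 0.670). Whether Kcnn4 differed from them in its response was not tested.

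Among the other voltage-gated pores, the ether-a-go-go family was mixed. Kcnh2, the rapid delayed rectifier known from the heart, stood at 3.17, 2.87 and 2.33 CPM in mild and 3.61, 6.13 and 6.09 CPM in severe libraries, with library 13 only just above the mild range (log2 fold change 0.91 ± 0.26, adjusted p = 0.113). Kcnh1 stood at 0.88 ± 0.34 with overlapping groups (adjusted p = 0.185). Kcnh4 went the other way, at 2.55, 1.68 and 2.33 CPM in mild and 0.814, 0.450 and 1.11 CPM in severe libraries, a log2 fold change of -1.46 ± 0.36 (adjusted p = 0.0972) on 8 to 18 counts in severe libraries. The inward rectifier Kcnj12, a relative of Kcnj2, stood at 2.34, 2.22 and 2.26 CPM in mild and 1.34, 0.788 and 1.17 CPM in severe libraries, with no overlap (log2 fold change -1.05 ± 0.26, adjusted p = 0.100). Kcnk2, a stretch-sensitive two-pore channel, stood at 1.79, 1.497 and 1.17 CPM in mild and 1.98, 2.64 and 3.26 CPM in severe libraries (log2 fold change 0.82 ± 0.28, adjusted p = 0.155).

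Channels known from vessels and pericytes differed little. Of 8, 5 were tested, and 0 of these had an unadjusted p under 0.05 (all tested genes: 15.8% higher, 7.89% lower), with log2 fold changes from -0.09 to 0.68 and a median of 0.16. Kcnj8, the pore of the ATP-sensitive channel of pericytes and smooth muscle, stood at 7.72, 6.59 and 7.34 CPM in mild and 9.07, 6.19 and 8.98 CPM in severe libraries (log2 fold change 0.16 ± 0.18, adjusted p = 0.590). It was 0.32 without severe library 14, 0.077 without severe library 13, 0.080 without severe library 15 and 0.11 without mild library 8. Kcnmb1, the smooth muscle subunit of the large-conductance channel, stood at 0.68 ± 0.31 on the log2 scale (adjusted p = 0.226; 0.38 without library 14), and its pore Kcnma1 at 0.27 ± 0.43 (adjusted p = 0.709); its value ran from -0.13 (without severe library 14) to 0.53 (without mild library 7), with 0.0013 without mild library 9 and 0.52 without severe library 13. Kcna5 stood at -0.09 ± 0.25 and Kcnk3 at -0.03 ± 0.39, both overlapping and both above 0 with library totals. Among those too low for a test, Kcnn3 had 15 counts over the mild and 26 over the severe libraries, and Kcnq5 had 3 and 5. Summed smooth muscle and pericyte markers (10 genes, 0 at 0 counts) lay between 246 and 278 CPM in mild and between 312 and 449 CPM in severe libraries, and their part was not tested.

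By class, 2 of 7 tested inward rectifiers were lower at an unadjusted p under 0.05 and 0 higher (median log2 fold change -0.25), where 7.89% of all tested genes were lower and 15.8% higher. Of 7 tested two-pore channels 3 were higher and 1 lower (median 0.15), of 16 voltage-gated pores 3 higher and 1 lower (median 0.02), of 6 calcium- or sodium-activated channels 2 higher and 0 lower (median 0.09), and of 9 auxiliary subunits 1 higher and 0 lower (median 0.23). A difference between classes was not tested. Of the 45 tested members, 37 reached the filter level in all 6 libraries, 4 in the 3 severe but not all mild libraries (Kcnk13, Kcnab3, Kcnma1, Kcnk3), 2 in the 3 mild but not all severe libraries (Kcnh4, Kcng1) and 2 otherwise, so the tested set leans on the group in which such a gene is high.

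The 47 members that were not tested held at most 68 counts over all 6 libraries. Of these, 8 had 0 counts in every library, which allows up to 0.207 CPM in a library (3 counts), 19 had between 1 and 9 counts and 20 had 10 or more. Among the 8 were Kcna10, Kcng3, Kcnj6, Kcnk15, Kcnk16, Kcns2 and Kcnv1, with Kcnj6 known from neurons and Kcnk16 from pancreatic islets. Gene spans, introns included, also overlap for Kcnd3 and Kcnd3os, Kcnab2 and Nphp4, Kcnab3 and Kcnab3os, and Kcnmb1 and Kcnip1. Whether any of their reads were shared was not tested.

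Genes that work with potassium channels were set beside them from 3 lists. Of 14 pumps and carriers, all tested, 0 had an adjusted p under 0.05, 2 stood higher at an unadjusted p under 0.05 and 2 lower (median log2 fold change -0.29). These were 14.3% each way, against 15.8% higher and 7.89% lower among all tested genes. Fxyd5, a regulator of the sodium pump, stood at 11.6, 11.1 and 11.7 CPM in mild and 17.1, 29.3 and 21.1 CPM in severe libraries (log2 fold change 0.97 ± 0.19, adjusted p = 0.0867), with no overlap. The potassium-chloride cotransporter Slc12a4 stood at 0.50 ± 0.14 (adjusted p = 0.117), while its relative Slc12a7 stood at -0.40 ± 0.16 (adjusted p = 0.183; -0.24 without severe library 14). Without severe library 13, Fxyd5 (1.14, adjusted p = 0.00415), Slc12a4 (0.62, adjusted p = 0.0159) and Slc12a7 (-0.51, adjusted p = 0.0462) passed the threshold, and without severe library 14 Fxyd5 did (0.73, adjusted p = 0.0162). Of all tested genes, 13.8% passed as higher and 7.74% as lower without library 13, and 2.40% as higher without library 14. The pump subunit Atp1b1 stood at -0.28 ± 0.20 (adjusted p = 0.388).

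Of 18 channel partners 11 were tested (median log2 fold change -0.25), with 0 past an adjusted p of 0.05. At an unadjusted p under 0.05, 0 were higher (all tested genes: 15.8%) and 3 lower (all tested genes: 7.89%). These 3 were Bsnd, the barttin subunit of the kidney chloride channels, at -0.64 ± 0.16 (adjusted p = 0.100), Lrrc52, an auxiliary subunit of large-conductance potassium channels, at -1.18 ± 0.33 (adjusted p = 0.111), and the lysosomal potassium channel Tmem175 at -0.26 ± 0.11 (adjusted p = 0.201; -0.16 without severe library 14). Bsnd passed the threshold without severe library 13 (-0.69, adjusted p = 0.0322), where 7.74% of all tested genes passed as lower. Of 13 regulators of distal potassium handling, all tested, 0 had an adjusted p under 0.05 (median log2 fold change -0.13). At an unadjusted p under 0.05, 0 stood higher and 1 lower (7.69%, against 7.89% of all tested genes). This was Klhl3, which takes part in the breakdown of the WNK kinases that act on Slc12a3, at -0.59 ± 0.20 (adjusted p = 0.146). It was -0.39 without severe library 14 and -0.74 without severe library 13 (adjusted p = 0.0343).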

How the data were processed

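Poly-A RNA of kidneys was sequenced in 6 libraries. The authors deposited unnormalized read counts for each Ensembl gene; these are integers, and library sums differ. Tools named by the submitters' processing notes were TopHat2 2.0.12, Bowtie2 2.2.3 and HTSeq 0.6.1, with build mm10. What each did, the counting mode and the strand setting were not given in the sources used here. Gene lengths (other values of the table, deposited by the authors) gave levels per kilobase.

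Column names gave each library's group and matched no sample title, so no libraries were paired; 0 columns were left out. Chi-square per degree of freedom between replicates was at least 3.67, so no library was a copy. Genes passing filterByExpr were scaled by TMM and tested with edgeR 4.0.16 (robust quasi-likelihood F test) in R 4.3.3. P-values of every tested gene were adjusted by Benjamini and Hochberg's method, with 0.05 as threshold. Standard errors are the log2 fold change over the root of F. Log2 CPM used a prior count of 2. Alternatives were other scalings and filters, DESeq2 1.42.0, limma-voom (limma 3.58.1), non-robust dispersion and each library left out. Floors cover counting error only. The pipeline was tested on simulated counts.

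The members and the lists were chosen with earlier results of these data known. Named are Kcnn4, the listed tubule, immune and vessel channels, up to 8 tested members per direction by p, the 5 highest per kilobase, and per partner list up to 4 genes at an unadjusted p under 0.05; others were named after their values were seen, and a few genes are not reported here. Counts of members whose groups do not overlap, or at an unadjusted p under 0.05, were put through the alternatives after seeing the data. Marker lists without a summed level in the results have theirs in the closing section, and the full gene lists are not printed. Figures were drawn with matplotlib.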

Additional observations from a re-analysis of the deposited data

How the results depend on the processing

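No paired analysis was possible because the column numbers match no sample title and the 2 groups share no replicate number. The count of all genes past the threshold, 2, was 1 with library totals, 146 with no filter and 1171 with DESeq2, and ran from 0 to 3269 when 1 library was left out. For potassium channel genes the count of 0 was 2 with no filter (Kcnn4 and Kcnip3) and 8 with DESeq2. With no filter these were 2.38% of 84 members, both higher, against 0.591% of all tested genes called higher. The count ran from 0 to 16 when 1 library was left out. It was 0 under the other scalings, the filter at 1 CPM, limma-voom and non-robust dispersion. Shares of all tested genes with DESeq2 and without severe library 13 or 14 are given in the results. Members higher at an unadjusted p under 0.05, 9 in all libraries, stayed within 1.5 times of that under each alternative; those lower, 4 in all libraries, ran from 2 (without mild library 8 or severe library 15) to 7 (without severe library 13). Members with every severe library above every mild one, 9 in all libraries, numbered 9 to 12 under the other scalings and 10 to 17 when 1 library was left out. Those below, 4 in all libraries, numbered 3 to 4 and 5 to 11, the highest both without severe library 13, where fewer libraries have to be apart. That holds for every gene, and shares of all tested genes for non-overlap in these settings were not computed. The Kcnn4 log2 fold change of 1.72 was 1.71 with no filter (adjusted p = 0.0265) and 1.72 with DESeq2 (adjusted p = 9.15e-05), both past the threshold, and ran from 1.65 to 1.85 when 1 library was left out. Kcnn4 minus the tubule channels ran from 1.62 to 1.97. The median over tested members was 0.14 with library totals, 0.12 with no filter and 0.050 with limma-voom, and ran from 0.011 to 0.082 when 1 library was left out. The members tested differed between settings, with 84 under no filter and 47 to 50 when 1 library was left out. Signs turned for Kcnab2 (-0.33 to 0.020 when 1 library was left out, above 0 without mild library 9), Kcne1 (0.10 with library totals; -0.13 to 0.037, above 0 without severe library 14), Kcnma1 (-0.13 to 0.53, below 0 without severe library 14), Kcna5 (0.070 with library totals) and Kcnk3 (0.0058 with upper-quartile scaling, 0.14 with library totals, 0.050 with limma-voom; -0.28 to 0.38, above 0 without mild library 7 and, at 0.12, without severe library 15). The cause of these shifts was not tested. For lack of counts, 47 of the 92 members were not tested.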

Other observations

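Several channel genes had values in severe library 14 far from the other libraries, and the examples here were chosen after their values were seen. Kcng1, a modifying voltage-gated subunit, stood at 4.48, 3.17 and 5.01 CPM in mild libraries and 4.48, 0.506 and 4.30 CPM in severe libraries 13, 14 and 15. Kcnd2, a relative of Kcnd3 that was too low to test, had 1, 6 and 5 counts in mild libraries and 5, 47 and 4 in severe libraries, so most of its severe counts were in library 14. Kcnt2 had 158 counts in library 14 against 58 and 70 in severe libraries 13 and 15. Kcnb2 had 26 counts in library 14 against 2 and 8 in severe libraries 13 and 15, and Kcnh8 24 against 3 and 6. Kcna3 and Kcnk12 had 7 counts each in library 14.

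Summed levels of the other marker lists were as follows. B cell markers lay between 9.28 and 9.75 CPM in mild and between 11.8 and 18.01 CPM in severe libraries. Endothelial markers (430 to 502 against 432 to 538 CPM) and podocyte markers (435 to 443 against 381 to 448 CPM) overlapped between mild and severe libraries. Intercalated cell markers lay between 498 and 506 CPM in mild and between 315 and 473 CPM in severe libraries. Neuron and glia markers, 2 of 9 of which were at 0 counts (Snap25 and Th), lay between 5.93 and 6.52 CPM in mild and between 6.75 and 10.4 CPM in severe libraries.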
